A study of Mus musculus with 6 samples.

Results

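The RAS-MAPK output genes described here were Etv4, Etv5, Dusp4, Dusp6, Spry1, Spry2, Spry4, Spred1 and Phlda1. These 9 genes, of 31055 features in the count table, were listed by name as genes commonly read as transcriptional output of the pathway. All 9 were detected. Their levels were compared between 4 gates of cells drawn on other genes, and between cells that carried GFP transcripts and cells that carried Stk11 transcripts.

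The cells were neoplastic cells sorted from lung tumors of 6 mice, profiled together by 10x 3-prime single-cell RNA-seq. All mice carried Lkb1XTR/XTR and Rosa26LSL-tdTomato on a mixed C57BL/6J:129 background. Tumors were started by Lenti-Cre, which switches on tdTomato and flips the XTR cassette in the first intron of Lkb1 (gene symbol Stk11) so that its transcript is cut short and GFP is made in its place. They grew for 20 weeks, and 2 weeks of treatment followed. The labels give no age. The 3 Restored mice carried FLPo-ERT2 and received 4 mg of tamoxifen, which lets the recombinase remove the cassette. The 3 NonRestored mice were 1 given tamoxifen without FLPo-ERT2, 1 given vehicle without it and 1 given vehicle with it. No group had tumors without Cre. Cells were sorted as tdTomato-positive after CD45, CD31, F4/80 and Ter119 were gated out. Cells were not assigned to mice here, so the whole table is 1 sample. No comparison of Restored with NonRestored mice was made and no p-value is given.

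RAS proteins relay signals from receptor tyrosine kinases to RAF, MEK and ERK. Active ERK enters the nucleus and switches on a short set of genes, among them ETS transcription factors of the PEA3 group, phosphatases that act on ERK itself, and the Sprouty and Spred proteins, which feed back on RAS activation. In the lung, Etv5 is also known for maintaining alveolar type II (ATII) cells, the surfactant-making cells of the alveolus, and Sprouty proteins are known for limiting FGF signals during airway branching.

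Of 16017 cells, 12183 (76.1%) had at least 500 genes and at most 20% mitochondrial counts and were kept, with 257163522 unique molecular identifiers (UMIs, counts of single captured transcripts) and a median of 19348 per cell. Gates were set in UMIs per 10000. The ATII gates (Sftpc of at least 500, Hopx under 2, Krt8 plus Krt18 under 50) held 3429 Lyz2-high cells (Lyz2 of at least 100) and 3546 Lyz2-low cells. The alveolar type I (ATI) gate (Hopx of at least 15, Krt8 plus Krt18 under 50) held 956 cells, and the keratin-high gate (Krt8 plus Krt18 of at least 50) held 1183. Among markers that no gate had used, 7 of 9 for ATII cells were highest in ATII Lyz2-high cells and the other 2 in Lyz2-low cells, 10 of 10 for ATI cells were highest in the ATI gate, and 5 of 6 transitional ones peaked in keratin-high cells, with the other (Cdkn1a) highest in ATI cells. Of 437 cells positive for immune, endothelial or fibroblast markers, 11 fell inside a gate, and a summed level of 5 immune markers was between 0.489 and 6.55 CPM (UMIs per 1000000 UMIs of all cells in the set) in the 4 gates against 7209 in immune marker-positive cells. For 5 fibroblast markers the sum was between 9.82 and 53.8 in the gates, against 51604 in fibroblast marker-positive cells. No doublet caller was run.

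The stretch of 250 bases before the RefSeq start site (GRCm38.p6) is shown for 4 members that span the patterns described below, Etv5, lowest in keratin-high cells, Dusp6, highest there, and 2 Sprouty genes. A RefSeq promoter was found for 5 of the 9 members (Etv5, Dusp6, Spry1, Spry2 and Spred1). Each was searched on both strands for CCGGAAGT (ETS), TGANTCA (AP-1), TGACGTCA (CRE), TTGCNNAA (C/EBP), CAAGTG (NKX2) and GGAATG (TEAD), and matches are in capitals.
Etv5, second start, chr16:22438369-22438618, minus strand, no match: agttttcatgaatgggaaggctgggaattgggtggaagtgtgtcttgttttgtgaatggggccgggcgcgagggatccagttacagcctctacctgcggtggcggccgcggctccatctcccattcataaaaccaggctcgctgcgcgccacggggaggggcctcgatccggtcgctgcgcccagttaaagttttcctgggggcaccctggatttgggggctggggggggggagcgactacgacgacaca
Dusp6, chr10:99262981-99263230, plus strand, no match: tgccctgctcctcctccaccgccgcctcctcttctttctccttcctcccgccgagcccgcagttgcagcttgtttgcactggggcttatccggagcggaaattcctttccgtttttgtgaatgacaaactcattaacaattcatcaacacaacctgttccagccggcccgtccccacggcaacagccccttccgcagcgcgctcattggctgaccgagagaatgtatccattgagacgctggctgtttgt
Spry1, chr3:37639697-37639946, plus strand, within an exon of the antisense gene Gm42922 in part, TEAD letters from -208 to -203 of the start: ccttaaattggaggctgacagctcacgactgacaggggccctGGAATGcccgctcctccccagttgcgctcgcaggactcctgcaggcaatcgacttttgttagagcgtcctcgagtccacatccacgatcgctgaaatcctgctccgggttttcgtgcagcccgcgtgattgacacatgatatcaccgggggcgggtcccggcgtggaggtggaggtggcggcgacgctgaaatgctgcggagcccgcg
Spry2, chr14:105896820-105897069, minus strand, NKX2 letters from -188 to -183: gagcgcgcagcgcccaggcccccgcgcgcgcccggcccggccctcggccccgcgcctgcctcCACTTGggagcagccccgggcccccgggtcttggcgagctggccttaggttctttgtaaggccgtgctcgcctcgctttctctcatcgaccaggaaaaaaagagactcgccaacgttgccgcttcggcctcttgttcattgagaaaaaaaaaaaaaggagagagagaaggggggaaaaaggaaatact
The TEAD letters stood in 12.6% and the NKX2 letters in 11.6% of 32851 mouse promoters of the same length. The other motifs stood in 2.88% (ETS), 6.75% (AP-1), 1.55% (CRE) and 9.56% (C/EBP) of them and in none of the 5 members' promoters. These are matches of letters and say nothing of whether a factor binds.

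The first question was whether the members were higher in keratin-high cells, the gate with the lowest Sftpc, than in ATII Lyz2-high cells. They did not move as a block. Etv4, Dusp6 and Phlda1 were 3.33 to 3.88 times higher in keratin-high than in ATII Lyz2-high cells, Etv5 was 4.06 times lower, and the Sprouty and Spred genes lay between. With a call at 2-fold and at least 10 CPM in either gate, 3 of 9 members were higher and 1 lower, where 19.3% of 8352 genes were called higher and 5.3% lower. The median gene was itself 0.50 higher on the log2 scale in keratin-high cells, where Sftpc took 1.93% of all UMIs against 17.1% in ATII Lyz2-high cells. The members' median log2 ratio was 0.60. Etv4 was under 10 CPM in ATII Lyz2-high cells and passed the minimum only through the keratin-high gate, so the count is a description. Intervals below are 95% intervals that cover counting error only, not the spread between mice, and are exact except where called approximate.

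Etv4 and Etv5 encode closely related ETS factors of the PEA3 group. Etv4 (chr11:101769742-101785371, minus strand) stood at 9.86 CPM in ATII Lyz2-high cells (interval 9.21 to 10.5), 14.98 in ATII Lyz2-low cells, 11.2 in ATI cells and 38.2 in keratin-high cells (36.1 to 40.5). Its keratin-high level was 3.88 times that in ATII Lyz2-high cells (3.55 to 4.24) and 3.42 times that in ATI cells (2.88 to 4.09). The intervals for ATI and ATII Lyz2-high cells overlapped, so these neighbors in the order could not be separated. Etv5 (chr16:22381309-22439719, minus strand) ran the other way, with 126 CPM in ATII Lyz2-high cells, 119 in ATII Lyz2-low cells, 50.8 in ATI cells and 31.0 in keratin-high cells (29.1 to 33.1). All 4 Etv5 intervals were separate. Its level was 4.06 times lower in keratin-high cells (3.80 to 4.34) and 2.48 times lower in ATI cells (2.30 to 2.69) than in ATII Lyz2-high cells.

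The ratio of Etv4 to Etv5 UMIs therefore climbed from gate to gate. It was 0.0782 in ATII Lyz2-high cells (0.0729 to 0.0838), 0.1254 in ATII Lyz2-low cells, 0.220 in ATI cells and 1.23 in keratin-high cells (1.13 to 1.34). No 2 of these intervals overlapped. In fibroblast marker-positive cells the ratio was 1.15 (0.785 to 1.68), on 63 Etv4 and 55 Etv5 UMIs.

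Dusp4 and Dusp6 encode dual-specificity phosphatases that remove phosphate from ERK, Dusp4 in the nucleus and Dusp6 in the cytoplasm. Dusp6 (chr10:99263231-99267489, plus strand) followed a fixed order, with 71.8 CPM in ATII Lyz2-high cells, 103 in ATII Lyz2-low cells, 157 in ATI cells and 239 in keratin-high cells (233 to 244). The keratin-high level was 3.33 times the ATII Lyz2-high level (3.22 to 3.44). Dusp4 (chr8:34807297-34819894, plus strand) stood at 17.7, 19.6, 5.40 and 30.7 CPM in the same order of gates. It was thus highest in keratin-high cells and lowest in ATI cells, where only 72 UMIs were counted. Keratin-high cells held 5.68 times the ATI level of Dusp4 (4.47 to 7.32), the widest of the members' ratios in that comparison.

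In keratin-high over ATI cells, 2 of the 8 members with at least 10 CPM, Etv4 and Dusp4, were called higher and none lower, with Dusp4 over the minimum only in keratin-high cells. Over all 8460 genes, 6.23% were called higher and 4.18% lower, and the median gene moved by 0.012 on the log2 scale. Dusp6 was 1.52 times higher in keratin-high than in ATI cells (1.45 to 1.60), Phlda1 1.48 times (1.45 to 1.504), and Etv5 1.64 times lower (1.48 to 1.81). Spry4, left out by the minimum level, was at 6.0 against 3.15 CPM.

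Spry1, Spry2 and Spry4 encode Sprouty proteins and Spred1 a related protein that brings neurofibromin to RAS at the membrane. Spry1 (chr3:37639947-37644598, plus strand, overlapped on the other strand by Gm42922) was highest in ATI cells at 225 CPM, followed by ATII Lyz2-high cells at 160, ATII Lyz2-low cells at 142 and keratin-high cells at 119. Its keratin-high level was 1.35 times lower than in ATII Lyz2-high cells (1.30 to 1.40) and 1.90 times lower than in ATI cells (1.81 to 1.99). Spry1 was the only Sprouty or Spred gene whose level in keratin-high cells was below that in all 3 alveolar gates.

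Spry2 (chr14:105891947-105896819, minus strand) varied least, from 94.3 CPM in ATII Lyz2-high cells through 105 in ATII Lyz2-low cells and 133 in keratin-high cells to 141 in ATI cells. The keratin-high level of Spry2 was 0.939 times the ATI level (0.889 to 0.993). Spred1 (chr2:117121374-117182279, plus strand) rose from 104 in ATII Lyz2-high cells to 150 in ATII Lyz2-low, 157 in keratin-high and 198 CPM in ATI cells. Spry4 (chr18:38586247-38601415, minus strand, overlapped on the other strand by Gm27369 and Gm27804) was scarce, at 11.5, 11.2, 3.15 and 6.0 CPM in ATII Lyz2-high, ATII Lyz2-low, ATI and keratin-high cells. For Spry4 the alveolar type II gates could not be separated, and both stood above the other gates.

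Phlda1 encodes a pleckstrin homology-like protein whose gene is induced by ERK and by other stimuli. Phlda1 (chr10:111506286-111508645, plus strand, overlapped on the other strand by Gm28592) was at 510, 733, 1187 and 1754 CPM in ATII Lyz2-high, ATII Lyz2-low, ATI and keratin-high cells. Its order of gates was that of Dusp6, and its keratin-high level was 3.44 times the ATII Lyz2-high level (3.39 to 3.48).

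**Figure D1:**
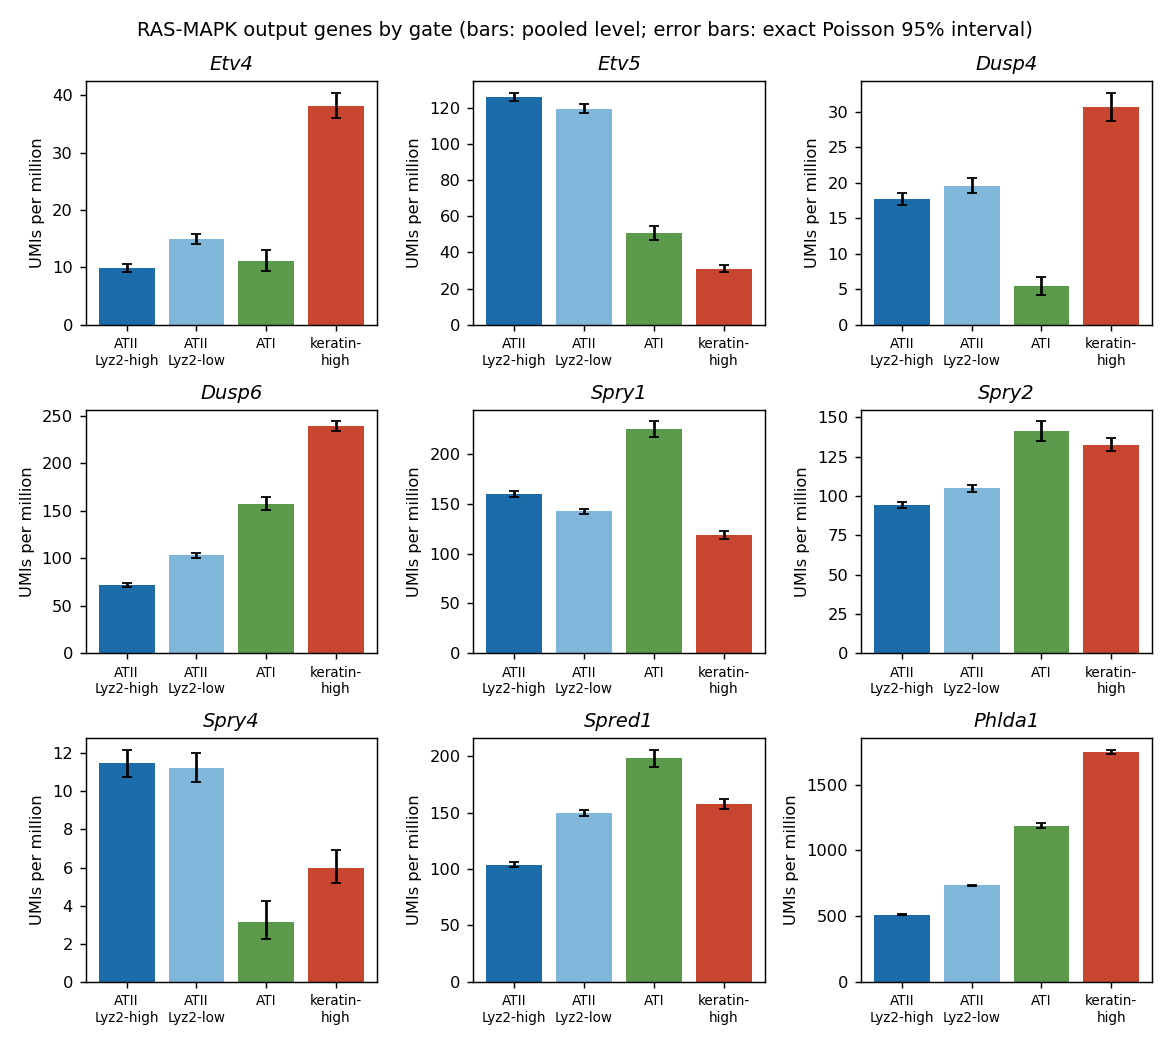
Level of each of the 9 members in CPM (vertical axis, from 0, a separate scale per gene) in the 4 gates; bars give the pooled level and error bars the exact Poisson 95% interval, which covers counting error only. Etv4, Dusp4, Dusp6 and Phlda1 were highest in keratin-high cells, Etv5 was lowest there, and Spry1, Spry2 and Spred1 were highest in ATI cells.

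Relative to the median gene of the same comparison, the split of the members in keratin-high over ATII Lyz2-high cells was sharper on the low side. Etv4 was 2.75 times, Phlda1 2.44 times and Dusp6 2.36 times higher than the median gene's shift, Dusp4 1.23 times, and Spred1 1.07 times. Spry2 changed sign and stood at 0.996 times. Spry1 was 1.90 times, Spry4 2.70 times and Etv5 5.73 times lower.

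Between ATI and ATII Lyz2-high cells, 8 of 9 members had intervals clear of a ratio of 1, and 5 of these passed 2-fold. Dusp6 was 2.19 times higher (2.09 to 2.30) and Phlda1 2.33 times (2.28 to 2.37), while Etv5 was 2.48 times, Dusp4 3.27 times (2.58 to 4.21) and Spry4 3.65 times (2.68 to 5.09) lower. Spred1 (1.91 times), Spry2 (1.495 times) and Spry1 (1.41 times) were higher in ATI cells by less. That is 2 of 9 called higher and 3 lower, beside 15.9% and 5.41% of 8294 genes, where Dusp4 and Spry4 passed the minimum only through ATII Lyz2-high cells. The median gene was 0.48 higher on the log2 scale here, and relative to it Dusp6 (1.57 times) and Phlda1 (1.67 times) no longer passed 2-fold, while the 3 lower members still did. Etv4, 1.13 times higher in ATI cells (0.946 to 1.35), turned to 1.23 times lower on that scale.

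Within the ATII cells, no member differed 2-fold between Lyz2-low and Lyz2-high cells, where 1.03% of 7684 genes were called higher and 0.169% lower. The largest ratio among the members was 1.52 for Etv4 (1.39 to 1.66). Spred1, Phlda1 and Dusp6 were each 1.44 times higher in Lyz2-low cells, Etv5 was 1.06 times lower (1.03 to 1.09) and Spry1 1.12 times lower (1.09 to 1.15). The median gene was 0.19 higher on the log2 scale in Lyz2-low cells, and relative to it Dusp4 and Spry2 changed sign, to 1.03 times lower each.

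Cells were next placed in 6 bins of their Krt8 plus Krt18 level, without gates. Etv4 rose in every bin, from 6.67 CPM in the 2546 cells under 5 per 10000 through 10.1, 15.8, 25.4 and 35.8 to 43.7 in the 334 cells at 100 or more, a ratio of 6.55 (5.63 to 7.63). Phlda1 rose from 446 to 1872 (4.197 times), Dusp6 from 68.9 to 269 (3.90 times) and Dusp4 from 13.9 to 30.8 (2.22 times), again without a step down. Etv5 was at 119, 124.5, 105, 64.4, 36.0 and 19.8 CPM, and the last bin was 6.04 times below the first (5.22 to 7.03). Spry2 and Spred1 peaked in the middle, Spry2 at 142 in the bin from 50 to 100 and Spred1 at 173 in the bin from 25 to 50, and Spry1 went from 166 in the first bin to 102 in the last.

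Spry4 showed a 3.94-fold fall along the same bins (2.93 to 5.42), from 19.3 to 4.89 CPM. Its level was 146 CPM in endothelial and 69.2 in fibroblast marker-positive cells, and 422 of the 437 cells of other types sat in the lowest bin. Without them, in bins chosen after these values were seen, the first bin of Spry4 dropped to 9.37 and the fall to 1.92 times (1.41 to 2.67), while Etv4 (6.90 times) and Dusp6 (4.61 times) rose more steeply. Etv5 then fell from the first bin on, from 140 through 124.7 and 104.9 to 19.8 CPM (7.07 times). Spry1, at 556 CPM in fibroblast marker-positive cells, changed shape without them, with 135, 154, 159, 152, 126 and 102 CPM in the 6 bins, a rise followed by a fall that ended 1.33 times below the first bin (1.24 to 1.43).

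**Figure D2:**
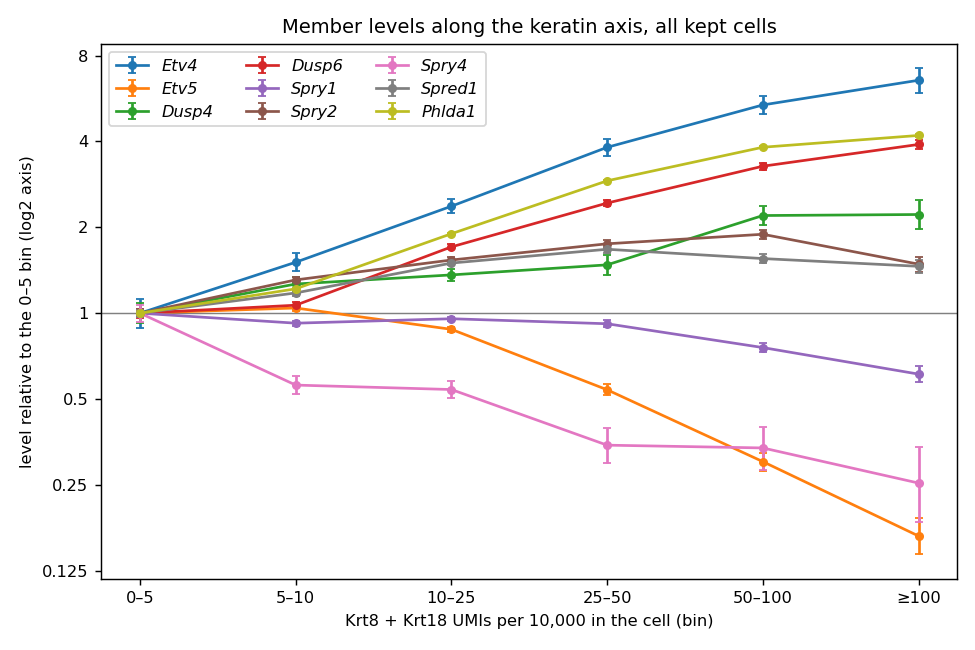
Level of each member relative to its own level in the lowest bin (vertical axis, log2 scale) across 6 bins of Krt8 plus Krt18 UMIs per 10000 (horizontal axis), all kept cells; error bars are exact Poisson 95% intervals of each bin divided by the level of the lowest bin. Etv4, Phlda1, Dusp6 and Dusp4 ended 6.55, 4.197, 3.90 and 2.22 times above the first bin, and Etv5 and Spry4 6.04 and 3.94 times below it.

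Inside the ATII gates, which exclude the keratin-high cells, some members kept this direction and others did not. Between ATII cells under 5 and those at 25 to 50 per 10000, Etv4 went from 6.495 to 24.8 CPM (3.81 times, 3.16 to 4.603), Dusp6 from 56.0 to 175 (3.12 times) and Phlda1 from 420 to 1193 (2.84 times). Etv5 went from 139 to 97.9 (1.42 times lower, 1.33 to 1.53). Spry1 ended 1.14 times above its first bin (1.07 to 1.21) and Spry4 1.13 times above it (0.904 to 1.41), so neither fell as it had over all cells. Sftpc took 17.4% of UMIs in the first of these bins and 11.1% in the last.

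Along Lyz2, the lysozyme gene that marks mature ATII cells, Etv4, Spred1, Phlda1 and Dusp6 all pointed the opposite way. From ATII cells under 25 to those at 200 or more per 10000, Etv4 went from 16.9 to 8.99 CPM, Spred1 from 165 to 92.2, Phlda1 from 790 to 468 and Dusp6 from 111 to 68.2, each lower in every successive bin. Etv5 stayed between 117 and 129.

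Cells with at least 1 GFP UMI and no Stk11 UMI (GFP-positive) were then set against cells with at least 1 Stk11 UMI and no GFP UMI (Stk11-positive) within each gate. By the design of the allele, GFP comes from the trapped state and full Stk11 transcript from the untrapped or restored state, but a single UMI is weak evidence of either. At least 1 GFP UMI was found in 17.5% of ATII Lyz2-high, 32.6% of ATII Lyz2-low, 25.5% of ATI and 54.5% of keratin-high cells, and also in 6.10% of immune marker-positive cells (2.01 to 13.7), whose median depth was close to that of ATII Lyz2-high cells, and in 2.34% of endothelial and 1.32% of fibroblast marker-positive cells. After thinning to 5000 UMIs, the ATII Lyz2-high share was 4.92% (4.22 to 5.71) and the immune share 1.39% (0.0352 to 7.497), and these intervals overlapped. GFP from free RNA cannot be told apart from a cell's own at 1 UMI in that gate, and its part in the ratios below was not tested. Stk11 was found in 15.6% to 22.8% of the cells of other types. The split is by single cells, not by mice: 5427 of the kept cells had neither transcript, and trap state and mouse cannot be told apart. Median depth was 28926 UMIs in GFP-positive and 26552 in Stk11-positive ATII Lyz2-high cells. There were 594 GFP-positive and 1516 Stk11-positive cells in the ATII Lyz2-high gate, 1148 and 837 in the ATII Lyz2-low gate, 242 and 266 in the ATI gate, and 642 and 165 in the keratin-high gate.

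Etv4 was higher in GFP-positive cells of all 4 gates. In ATII Lyz2-high cells it was at 17.0 CPM in GFP-positive against 7.10 in Stk11-positive cells, a ratio of 2.39 (2.03 to 2.81). The values were 19.7 against 10.3 in ATII Lyz2-low cells (1.92 times, 1.63 to 2.26) and 18.3 against 5.67 in ATI cells (3.24 times, 2.04 to 5.30, on 80 and 25 UMIs). The ATI sets also differed in identity genes: 11 of 11 ATII markers (summed level 49806 against 80559 CPM) and 9 of 11 ATI markers (14817 against 16370) were lower in GFP-positive cells, among them Lyz2 (295 against 1584), Pdpn (18.3 against 76.6) and Rtkn2 (93.1 against 213), and Krt8 was at 1196 against 853. Their part in the Etv4 ratio was not tested. In keratin-high cells, where the level was highest, they were 40.6 against 33.0 (1.23 times, 1.04 to 1.48). The ratio in ATII Lyz2-high cells was 1.94 times that in keratin-high cells (approximate interval 1.54 to 2.46).

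Etv5 showed the opposite arrangement. GFP-positive and Stk11-positive cells held 121 and 129 CPM in the ATII Lyz2-high gate (ratio 0.936, 0.890 to 0.984), 118 and 115 in the ATII Lyz2-low gate (1.02, 0.972 to 1.08) and 53.9 and 56.0 in the ATI gate (0.963, 0.802 to 1.16). In keratin-high cells the values were 32.4 and 19.2, a ratio of 1.69 (1.35 to 2.13) that rests on 89 UMIs in 165 Stk11-positive cells. In these keratin-high sets 9 of 11 ATII markers were higher in GFP-positive cells (summed level 33437 against 27460 CPM), among them Slc34a2 (209 against 73.7), Lamp3 (126 against 63.8) and Napsa (1006 against 520). Of 8 transitional markers 3 were higher and 5 lower, with a summed level of 16726 against 16672 CPM. The lower ones included Cdkn1a (458.5 against 1118) and Cldn4 (393 against 610). The part of these markers in the Etv5 ratio was not tested. The ATII Lyz2-high ratio was 0.554 times the keratin-high ratio (approximate interval 0.442 to 0.696). With at least 2 UMIs of GFP or Stk11 required, the keratin-high ratio of Etv5 was 1.48, and in cells of 10000 to 30000 UMIs it was 1.31, both below the 1.5-fold line. In those same cells of 10000 to 30000 UMIs the keratin-high ratio of Etv4 was 1.74, above the line.

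Phlda1 stood at 699 CPM in GFP-positive against 435 in Stk11-positive ATII Lyz2-high cells (1.61 times, 1.57 to 1.64) and at 903 against 518 in ATII Lyz2-low cells (1.74 times, 1.70 to 1.78). It differed less in ATI cells (1385 against 1128, 1.23 times) and in keratin-high cells (1815 against 1480, 1.23 times). Dusp6 was at 92.7 against 61.0 in ATII Lyz2-high cells (1.52 times, 1.43 to 1.62) and 118 against 83.6 in ATII Lyz2-low cells (1.41 times, 1.33 to 1.5). In ATI cells Dusp6 was 140 against 159, the single gate in which it was lower in GFP-positive cells (1.14 times, 1.02 to 1.27).

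Among the feedback inhibitors, Spred1 was 1.31 times higher in GFP-positive ATII Lyz2-high cells (1.24 to 1.38) and 1.39 times in ATII Lyz2-low cells (1.32 to 1.46). Spry2 was 1.16, 1.31, 1.41 and 1.55 times higher in ATII Lyz2-high, ATII Lyz2-low, ATI and keratin-high cells, and its keratin-high values were 140 against 90.3 CPM (interval of the ratio 1.40 to 1.72). Spry1 was between 0.983 and 1.22 times in the 4 gates. Dusp4 was 1.22 times higher in ATII Lyz2-high cells (1.08 to 1.39) and 1.37 times in ATII Lyz2-low cells (1.20 to 1.57), and its intervals in the other gates included 1. Spry4 was 1.23 times higher in ATII Lyz2-high cells (1.05 to 1.44), and its intervals in the other 3 gates included 1.

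At a line of 1.5-fold, members called higher in GFP-positive cells were 3 of 9 in ATII Lyz2-high cells (Etv4, Phlda1, Dusp6), 2 of 9 in ATII Lyz2-low cells (Etv4, Phlda1), 1 of 7 in ATI cells (Etv4) and 2 of 8 in keratin-high cells (Etv5, Spry2). The shares over all tested genes were 4.35%, 5.61%, 7.02% and 6.06%. Etv4 passed the minimum only through GFP-positive cells in the ATII Lyz2-high and ATI gates. No member was called lower, beside 1.53%, 2.06%, 3.21% and 5.57% of genes. The median gene was 0.11, 0.15, 0.12 and 0.016 higher on the log2 scale in GFP-positive cells of the 4 gates, in the same order. Relative to it, Phlda1 (1.49 times) and Dusp6 (1.41 times) fell under the line in ATII Lyz2-high cells and Etv4 (2.22 times) did not.

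**Figure D3:**
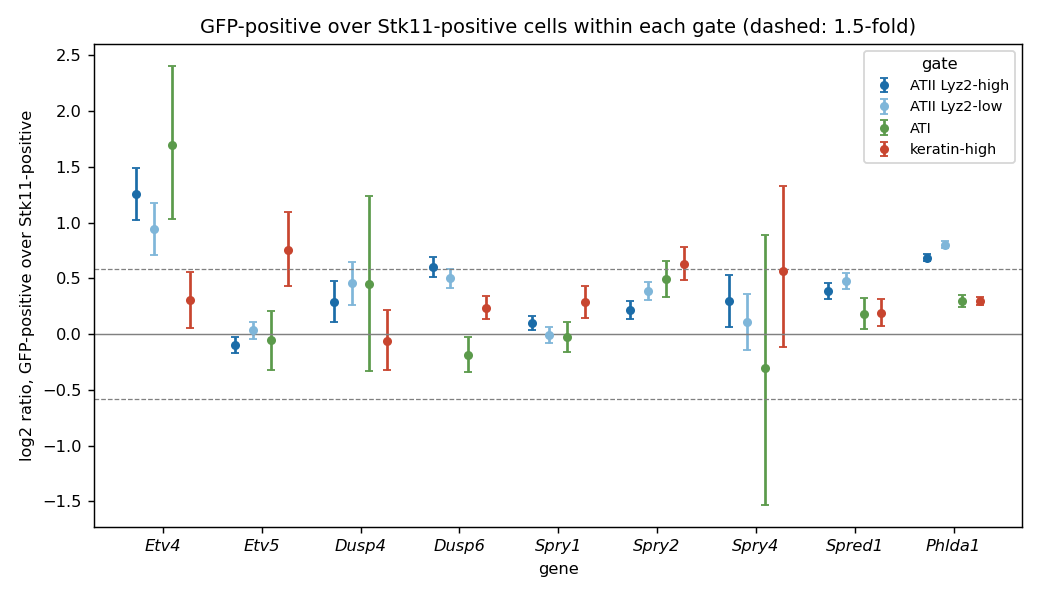
log2 ratio of the pooled level in GFP-positive over Stk11-positive cells (vertical axis) for each member (horizontal axis) within the 4 gates (colors); error bars are exact 95% intervals, counting error only, and dashed lines mark 1.5-fold. Etv4 lay above 0 in all 4 gates, with ratios from 1.23 in keratin-high to 3.24 in ATI cells, and Etv5 lay above the dashed line in keratin-high cells, at 1.69.

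GFP-positive and Stk11-positive cells of a gate also differed in keratin and in identity markers. In the ATII Lyz2-high gate Krt8 was at 596 CPM in GFP-positive against 329 in Stk11-positive cells, and in the ATII Lyz2-low gate at 754 against 404. Sftpc took 15.3% against 17.8% of UMIs in the first of these gates. The sort marker tdTomato was at 8502 against 4793 CPM in ATII Lyz2-high and 9272 against 5406 in ATII Lyz2-low cells. In ATI cells tdTomato was at 10137 against 6679, and in keratin-high cells at 10726 against 8408. In the ATII Lyz2-high gate 7 of 11 ATII markers were lower in GFP-positive cells (summed level 226573 against 258746 CPM), while 7 of 11 ATI markers (2199 against 1749) and 6 of 8 transitional markers (2106 against 1427) were higher. In the ATII Lyz2-low gate 8 of 11 ATII markers were lower (169380 against 208621), among them Hc (185 against 441), and 8 of 11 ATI (3077 against 2231) and 7 of 8 transitional markers (2942 against 1777) were higher. The part of these markers in the members' ratios was not tested. The comparison was repeated inside keratin bins of all ATII cells, a step chosen after seeing these values. Etv4 was at 12.04 against 5.64 CPM under 5 per 10000 (2.14 times, 1.49 to 3.04), 16.9 against 7.46 from 5 to 10 (2.27 times, 1.88 to 2.74) and 19.3 against 11.01 from 10 to 25 (1.75 times, 1.46 to 2.11). From 25 to 50, with 34 Stk11-positive cells, it was 24.5 against 28.2, and that ratio of 0.870 (0.578 to 1.36) did not separate from 1.

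Phlda1 was higher in GFP-positive cells of all 4 keratin bins, by 1.28, 1.64, 1.51 and 1.33 times, and so was Dusp6, by 1.53, 1.27, 1.23 and 1.26 times. Etv5 ratios were 1.03, 1.04, 1.00 and 0.927, and the interval of each included 1. Combined over keratin bins within the ATII Lyz2-high gate, Etv4 kept a ratio of 2.05, while Phlda1 (1.42) and Dusp6 (1.35) were under 1.5. In the ATII Lyz2-low gate the combined ratios were 1.57 for Etv4, 1.51 for Phlda1 and 1.11 for Dusp6.

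**Figure D4:**
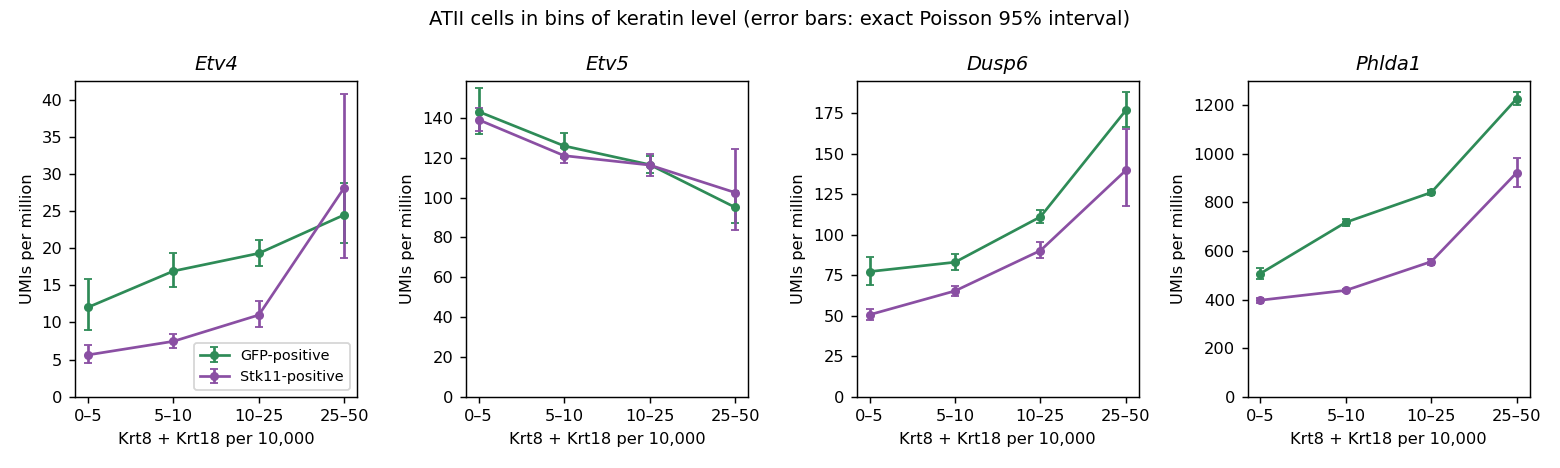
Levels of Etv4, Etv5, Dusp6 and Phlda1 in CPM (vertical axes, from 0) in GFP-positive and Stk11-positive ATII cells across 4 bins of Krt8 plus Krt18 UMIs per 10000 (horizontal axes); error bars are exact Poisson 95% intervals. Phlda1 and Dusp6 were higher in GFP-positive cells of every bin, Etv4 in the first 3 (2.14, 2.27 and 1.75 times), and the interval of the Etv5 ratio included 1 in every bin.

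Cycling cells, marked by proliferation genes, made up 1.52% of GFP-positive against 0.528% of Stk11-positive cells in the ATII Lyz2-high gate and 4.44% against 1.55% in the ATII Lyz2-low gate. Etv4 was at 48.3 CPM in 193 cycling cells free of other cell types' markers (43.0 to 54.1), against 16.4 in all kept cells. Leaving cycling cells out moved no count of called members.

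To compare shares of cells at equal depth, each cell was thinned to 5000 UMIs, and 37, 166, 115 and 93 shallower cells of the ATII Lyz2-high, ATII Lyz2-low, ATI and keratin-high gates were left out. Etv4 was then detected in 4.13%, 5.95%, 3.92% and 16.8% of cells in that order, against 19.0%, 21.7%, 12.6% and 51.1% before thinning. Etv5 was detected in 45.0%, 43.4%, 17.5% and 12.7%, Dusp6 in 26.3%, 34.6%, 45.5% and 60.1%, and Phlda1 in 76.3%, 83.2%, 89.2% and 98.3%. Immune marker-positive cells, which the sort was meant to remove, gave 0 of 72 cells for Etv4, which allows a share of up to 4.99% (exact binomial), and 2.78% for Etv5. For Dusp6 and Phlda1 these cells are no measure of free RNA, since they held 64.1 and 381.5 CPM of them, against 10.1 of Etv5. Their median depth was 23684 UMIs against 24514 in ATII Lyz2-high cells. Their pooled Etv4 level was 2.12 CPM (0.577 to 5.43), below every gate. The Etv4 share in the ATI and ATII Lyz2-high gates thus lay under the limit that the immune cells allow, and Etv4 in these gates is best read from the pooled levels.

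Counting how many of the 9 genes a thinned cell contained gave a mean of 2.92 in ATII Lyz2-high, 3.15 in ATII Lyz2-low, 3.24 in ATI and 3.41 in keratin-high cells, with a median of 3 in every gate. The share with 5 or more was 11.6% (10.6 to 12.7) in ATII Lyz2-high cells, 15.2% in ATII Lyz2-low, 15.5% in ATI and 21.2% (18.8 to 23.7) in keratin-high cells. No cell held all 9. Thinning sets equal totals but leaves their make-up, and Sftpc took 17.1% of UMIs in ATII Lyz2-high against 1.93% in keratin-high cells. No such share is given for other genes, so the rise is not read as particular to the members. Among pairs expected in at least 20 cells, co-detection exceeded the product of the separate shares in 26 of 33 pairs in ATII Lyz2-high, 24 of 33 in ATII Lyz2-low, 12 of 17 in ATI and 24 of 28 in keratin-high cells, with a median odds ratio of 1.13, 1.12, 1.18 and 1.31. Dusp6 and Phlda1 had odds ratios of 1.26, 1.55, 1.71 and 2.63 in that order of gates, and Etv5 and Spred1 1.09, 1.18, 1.49 and 1.66. Correlations of thinned counts were weak, at most 0.247, and cells of a gate differ in mouse and state, so no more is read from these values.

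**Figure D5:**
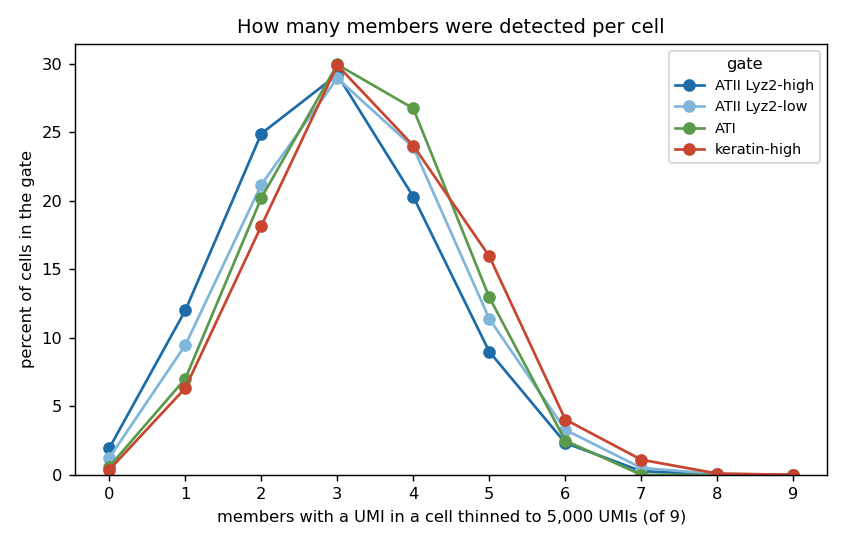
Percent of cells (vertical axis, from 0) by the number of the 9 members with a UMI after thinning to 5000 UMIs (horizontal axis) in the 4 gates. The curves peaked at 3 members in every gate, and the share with 5 or more was 21.2% in keratin-high against 11.6% in ATII Lyz2-high cells. Thinning does not correct for the different share of Sftpc in the gates, and no background over other genes is given.

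The wider pathway was read from lists of named genes by role. At the receptor level, 2 of 12 measured receptors and adaptors were called higher in keratin-high over ATII Lyz2-high cells and 1 lower, near the 19.3% and 5.3% of all genes, with a median log2 ratio of 0.15 against 0.50 for all genes. Fgfr2, a receptor for FGF7 and FGF10, fell from 95.3 to 18.5 CPM (5.15 times lower). Fgfr3 (2.42 times) and Erbb3 (2.02 times) were higher. Among RAS genes and their regulators 3 of 10 were higher, Rras2 (4.55 times), Rras (3.46 times) and Nras (2.67 times), beside the same 19.3%, and none lower. Rras2 passed the minimum only through keratin-high cells, so this count is a description.

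In the kinase cascade from Raf to Erk, 0 of 10 measured genes were called in either direction, with a median of 0.34. Of 23 other ERK output genes, 19 reached 10 CPM in either gate, and 12 of these were called higher and 1 lower, beside 19.3% and 5.3% of all genes. Of the 12, 6 (Emp1, Plaur, Lif, Fosl1, Dusp10 and Myc) reached the minimum only through keratin-high cells, where they were high, and the lower gene only through ATII Lyz2-high cells, so nothing is read from this count about the list. Emp1, a membrane protein gene, went from 6.26 to 307 CPM (49.1 times), Plaur, the urokinase receptor, from 4.58 to 177 (38.6 times), the cytokine gene Lif from 2.21 to 74.9 (33.9 times), and the AP-1 gene Fosl1 from 1.88 to 29.0 (15.4 times). These genes were named for having the largest ratios of the list, so they are not set against the 9 members. The single lower gene, named after its value was seen, was the third PEA3 factor Etv1, at 2.32 against 12.4 CPM.

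Of 9 measured ETS factors outside the PEA3 group, 4 were called higher and 2 lower in the same comparison, beside 19.3% and 5.3% of all genes, with a median log2 ratio of 0.62 against 0.50. Ets1 passed the minimum only through keratin-high cells and Elf5 only through ATII Lyz2-high cells, so these counts are a description. Ets1 went from 2.71 to 36.9 CPM (13.6 times) and Elk3 from 10.8 to 41.2 (3.80 times), while the epithelial factors Elf5 (94.5 to 5.22, 18.1 times lower) and Ehf (73.8 to 27.3, 2.71 times lower) were lower.

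The output genes called higher in GFP-positive ATII cells were 3 of 15 in each ATII gate, beside 4.35% and 5.61% of all genes, and 3 of 14 in the ATI gate, beside 7.02%. Of these, 2 in the ATII Lyz2-high gate (Plaur, Emp1), 1 in the ATII Lyz2-low gate (Plaur) and 1 in the ATI gate (Dusp10) reached 10 CPM only in GFP-positive cells, and the counts are given as a description. Plaur was at 10.6 against 2.77 CPM in ATII Lyz2-high cells (3.83 times, 3.03 to 4.86), Emp1 at 10.8 against 5.18 (2.09 times) and the cyclin gene Ccnd1 at 257 against 150 (1.71 times). Phlda3 was lower in ATII Lyz2-high cells, at 34.8 against 52.2. The list was drawn up by name, and whether ERK drives Phlda3 or its other genes in these cells was not tested. In keratin-high cells the same list gave 1 of 19 higher and 5 lower, beside 6.06% and 5.57% of all genes. Phlda2 was higher there (1.98 times), and Emp1, at 245 against 505 CPM (2.06 times lower, 1.963 to 2.17), Phlda3 (152 against 411) and Hmga2 (3.42 against 18.1) were lower. Hmga2 reached 10 CPM only in Stk11-positive cells, so the keratin-high counts are a description too. Of the 12 receptors and adaptors, 1, 1, 0 and 2 were called higher in GFP-positive cells of the ATII Lyz2-high, ATII Lyz2-low, ATI and keratin-high gates, beside 4.35%, 5.61%, 7.02% and 6.06% of all genes, and 0, 0, 1 and 0 lower. Shc1, which encodes an adaptor between receptors and RAS, was 1.77, 1.59, 1.46 and 1.85 times higher in that order, under the line in ATI cells (1.21 to 1.755). No gene of the kinase cascade was called in any of the 4 gates.

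Genes whose level tracked a member most closely over 8 sets of cells (GFP-positive and Stk11-positive cells of the 4 gates) were ranked by Pearson correlation of log2 of the level plus 1 among 9080 genes. The nearest to Etv5 were Dram1 (0.997), Sfta2 (0.996) and Tmem50b (0.994), and the nearest to Phlda1 were Dnajb11 (0.998) and Orai1 (0.997). Malt1 (0.984) was nearest to Etv4 and Mak16 (0.997) to Dusp6. Between members, Dusp6 and Phlda1 correlated at 0.969, and Etv5 was negatively correlated with both (-0.888 and -0.852). These are descriptions over 8 sets that come from 1 pooled table and differ in depth (median 14120 to 28926 UMIs per cell), and with 9080 genes ranked high values are found for every member.

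Outside the gates, the members differed between the few cells of other types. Spry1 was at 556 CPM in 228 fibroblast marker-positive cells (above every epithelial gate), and Dusp6 at 241 in 128 endothelial marker-positive cells, where Spry4 was at 146. Etv5 was at 10.1, 4.202 and 14.0 CPM in immune, endothelial and fibroblast marker-positive cells, below every epithelial gate. Etv4 was at 2.12, 0.600 and 16.1 CPM in the same cells. Its fibroblast level (12.4 to 20.6) lay above that in ATII Lyz2-high cells and below that in keratin-high cells. The 3069 kept cells in no gate held intermediate levels of Etv4 (18.2), Etv5 (77.6) and Dusp6 (132).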

How the data were processed

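Neoplastic lung cells of 6 mice were profiled by droplet single-cell RNA-seq. The deposited file holds UMI counts per gene and cell, which the authors made with Cell Ranger 3.0.2 on mm10 with GENCODE M21 genes; version names are from the submitters' processing notes. The matrix pools all mice and was treated as 1 sample, so no replicate test was possible. Cells with at least 500 genes and at most 20% mitochondrial UMIs were kept. Counts of a set of cells were summed and divided by that set's total to give CPM, UMIs per 1000000. Levels have exact Poisson, ratios exact conditional binomial and shares exact Clopper-Pearson 95% intervals, which cover counting error only. Ratios of ratios have approximate intervals from the standard error of the log ratio. A gene was called at 2-fold between gates, or 1.5-fold between GFP-positive and Stk11-positive cells, with at least 10 CPM in either set. Shares of cells were computed after thinning to 5000 UMIs.

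The members and gene lists were chosen with earlier results of these data known. Named pathway genes were at most the 4 with the largest absolute log2 ratio of a list, and named similar genes at most the 3 nearest to a member. Alternatives covered the scaling, gate limits, depth, cycling cells and cells of other types. An item of the genotype and of the pathway lists is not reported here. The calculations were tested on simulated data. Figures were drawn with matplotlib 3.10.9, tables handled with pandas 2.3.3 and intervals computed with scipy 1.17.1 and numpy 2.4.6 under Python 3.11.15. Coordinates are GRCm38, and promoter sequences are RefSeq's on GRCm38.p6.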

Additional observations from a re-analysis of the deposited data

How the results depend on the processing

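Of 206 values, 21 summary results each under its alternatives, 190 stayed within the limits set for them and 16 moved. Of 936 values for single members, 230 moved beyond the counting interval. Of 864 member ratios, 27 changed sign, in 15 of 72 member comparisons, none of them a called one, among them Etv4 in ATI over ATII Lyz2-high cells (4 of 12 settings) and, in GFP-positive over Stk11-positive cells, Etv5 in the ATII Lyz2-low gate (3) and Dusp4 in the keratin-high gate (3). In keratin-high over ATII Lyz2-high cells, members called lower rose from 1 to 2 (Spry4 joined Etv5) when each cell counted equally, relative to the median gene, with totals without surfactant genes and Lyz2, without the 5% of cells with the most UMIs, and with the keratin-high gate at 100. In ATI over ATII Lyz2-high cells, members called higher fell to 0 relative to the median gene and with totals without surfactant genes and Lyz2. In keratin-high over ATI cells, members called lower rose to 2 (Etv5, Spry1) with the keratin-high gate at 100 and to 1 (Spry1) with Hopx of at least 30. In GFP-positive over Stk11-positive cells, members called higher in the ATII Lyz2-high gate fell to 1 (Etv4) relative to the median gene and within keratin bins. With at least 2 UMIs of GFP or Stk11, they rose to 2 in the ATI gate (Spry2 at 1.61 times) and fell to 1 in the keratin-high gate (Etv5 lost). In cells of 10000 to 30000 UMIs the keratin-high gate kept 2 calls but gained Etv4 and lost Etv5, and Dusp6 was added in the ATII Lyz2-low gate. Dusp6 was lost in the ATII Lyz2-high gate with totals without surfactant genes and Lyz2, and Spred1 was added in ATI over ATII Lyz2-high cells with the Lyz2 split at 200. The share of keratin-high cells with 5 or more members was 18.4% without the 5% of cells with the most UMIs. Along the keratin bins, members 2-fold lower in the top bin fell to 1 without cells of other types and to 0 within the ATII gates. Keratin and Lyz2 bins within gates, and both changes to the keratin axis, were chosen after seeing the data, and the cause of each change was not tested. No paired analysis was possible because cells were not assigned to mice, and for the same reason no mouse could be left out.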
